A study of Homo sapiens with 6 samples.

Results

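The transcripts of YAP1, WWTR1, TEAD1, TEAD3 and TEAD4 and of the Hippo target genes CTGF, CYR61, ANKRD1, AMOTL2 and LATS2 were examined in 786-O cells, a human clear cell renal cell carcinoma line, after knockdown of the transcription factor NFE2L3. These 10 genes of the 56303 in the count table were chosen by name for their place in the Hippo pathway, with earlier results of these data known. The series holds 6 libraries of poly(A)-selected RNA. The 3 siControl libraries came from cells with a control siRNA, and their labels give a wild-type genotype and a time of 0 h. The 3 siNFE2L3 libraries came from cells with an siRNA against NFE2L3, and their labels give 48 h. The siRNA and the labelled time therefore cannot be told apart in any difference between the groups. In siNFE2L3 libraries 2 and 3 the genotype label reads NFE2L4 and NFE2L5, while the title and the source name give NFE2L3. Both groups are of the same cell line, no label says that the libraries of a group came from separate cultures, and p-values may then measure only technical spread.

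The Hippo pathway is a kinase cascade in which MST kinases, with SAV1, activate LATS kinases. LATS kinases, with MOB1, phosphorylate the coactivators YAP (YAP1) and TAZ (WWTR1), which are then held in the cytoplasm or degraded. Unphosphorylated YAP and TAZ enter the nucleus and bind TEAD factors, which recognise the DNA letters GGAATG and switch on genes such as CTGF, CYR61 and ANKRD1. AMOTL2 and LATS2 are targets whose products restrain YAP and TAZ in turn. Because the activity of YAP and TAZ is set largely on the protein, transcript levels do not measure it.

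The promoter letters that TEAD factors recognise were looked up for the members, since CTGF, CYR61 and ANKRD1 are known TEAD targets. RefSeq windows of GRCh38.p14, from 250 bases before to 50 bases after a start site, were at hand for 7 of the 10 genes, in 9 windows, and not for CYR61, TEAD1 or TEAD4. GGAATG, read on both strands (CATTCC on the other), was found in 5 of the 9 windows, from 5 genes. Of all 35116 windows, 14.03% hold it at least once, 1.37% at least 2 times and 0.128% at least 3 times. The stretches before the start site with these letters are shown 5′ to 3′ on the strand of the gene, with the match in capitals.
CTGF, chr6:131951450-131951553, minus strand, bases 181 to 78 before the start: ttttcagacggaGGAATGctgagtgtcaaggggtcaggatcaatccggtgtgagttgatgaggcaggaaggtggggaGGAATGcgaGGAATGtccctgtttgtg
ANKRD1, chr10:90921198-90921319, minus strand, bases 232 to 111 before the start: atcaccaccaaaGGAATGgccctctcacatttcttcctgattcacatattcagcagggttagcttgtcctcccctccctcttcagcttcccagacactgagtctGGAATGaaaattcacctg
YAP1, chr11:102110273-102110302, plus strand, bases 174 to 145 before the start: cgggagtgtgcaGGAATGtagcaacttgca
AMOTL2, chr3:134374499-134374528, minus strand, bases 81 to 52 before the start of the second window: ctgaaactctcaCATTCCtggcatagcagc

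CTGF held 3 matches, at 169, 104 and 95 bases before its start, which places it among the 45 windows with at least 3. ANKRD1 held 2 matches, at 220 and 128 bases before its RefSeq start. The match in LATS2 lay 10 bases after the start and is not printed. The match in AMOTL2 and the start it precedes, at 134374447, lie inside the span of that gene as counted. The first window of AMOTL2, with a start at 134375417, does not hold these letters. WWTR1 and TEAD3 had windows without these letters. NFE2L3, like its relatives NRF1 and NRF2, binds antioxidant response elements with a small MAF partner. The core TGACNNNGC of that element, on both strands, was found in the window of 1 member, LATS2, at 12 bases before the start, and in 13.3% of all windows. A match describes the letters in a window and says nothing of binding in these cells.

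Total counts ran from 51828446 to 57391929 per library. NFE2L3, the targeted gene, was counted 6171, 6508 and 6403 times in the siControl libraries and 1087, 1075 and 1068 times in the siNFE2L3 libraries. As CPM, the count relative to the TMM-scaled library size, it stood at 115 ± 1.96 (SD, n = 3) and 19.8 ± 0.881 (SD, n = 3), or 17.2% of control (log2 fold change -2.54, SE 0.0482, adjusted p = 3.98e-22, edgeR). The labels of the 6 libraries were therefore met by the level of the targeted gene. Of 7 kidney and renal carcinoma markers 6 were above 1 CPM, among them PAX8, and CA9 was nearly absent, at 0 to 6 counts per library. Their summed level was 2391 to 2451 CPM in siControl and 2177 to 2269 CPM in siNFE2L3, and the part of this shift in the results was not tested. Leukocyte markers summed to at most 0.537 CPM and endothelial markers to at most 0.450 CPM in any library.

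In the edgeR quasi-likelihood test across 19916 genes, 6 of the 10 members were lower in siNFE2L3 at an adjusted p under 0.05, 0 were higher and 4 did not pass. At an unadjusted p under 0.05 the counts were 7 lower and 0 higher. The share of all tested genes under that rule was not computed, so nothing is read from these 2 counts. DESeq2 gave 6 and 0, beside 2554 lower and 2384 higher of the 19916 genes. WWTR1, TEAD1, TEAD3, CYR61, ANKRD1 and AMOTL2 fell, and YAP1, TEAD4, CTGF and LATS2 did not pass. Of all tested genes 26.7% passed, 14% as lower and 12.7% as higher. Most members are well expressed, and among the 12256 genes with a mean of at least 4 CPM, a limit set after the values were seen, 37.8% passed and 20.6% were lower. The values of all 3 libraries of one group lay apart from those of the other for 6 members, all lower in siNFE2L3. In either direction this held for 39.5% of all tested genes, a share not computed for genes of at least 4 CPM. The decreases were small. None of the 10 members had a fold of at least 2 with an unadjusted p under 0.05, a rule met by 1.10% of all tested genes. Of the members only WWTR1 and TEAD3 exceeded 1.2-fold, and ANKRD1 lay just under it at 1.198. The share of all tested genes above 1.2-fold was not computed. The median log2 fold change of the 10 members was -0.15, beside -0.00066 over all tested genes. The median absolute log2 fold change of all tested genes was 0.157. Of the 10 member values 8 were negative, TEAD4 among them at -0.01, beside 9976 of the 19916 tested genes. In bulk RNA, fewer cells of a kind and less RNA per cell cannot be told apart.

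**Figure D1:**
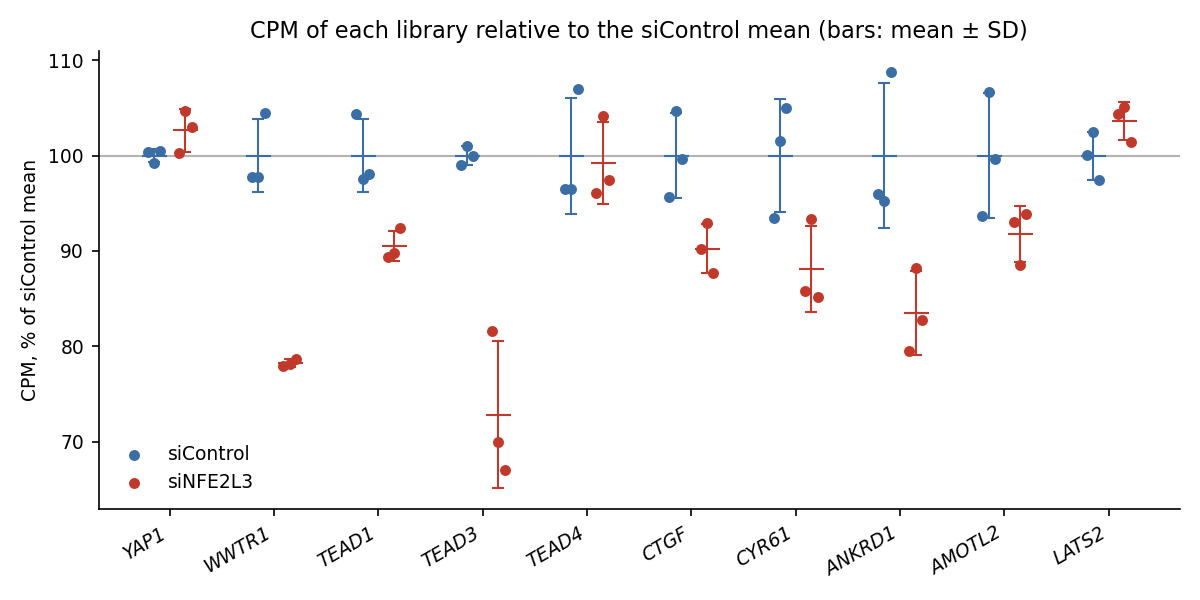
Level of each of the 10 transcripts in every library (points), as a percent of the mean CPM of the siControl libraries, with bars at the mean ± SD and an axis that does not start at 0. WWTR1 and TEAD3 lie lowest in siNFE2L3, at 78.2% and 72.8% of control on average, and YAP1, TEAD4 and LATS2 lie around the control level.

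**Figure D2:**
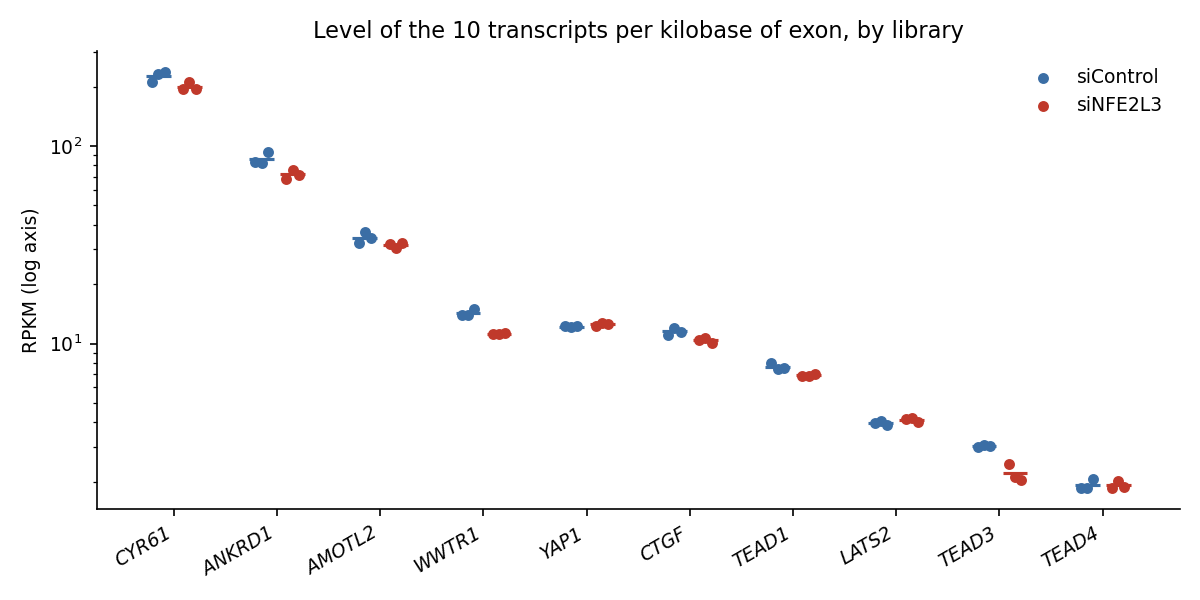
Levels of the 10 transcripts in RPKM on a log axis, with 1 point per library and a line at each group mean. CYR61 is highest and TEAD4 lowest in all 6 libraries, and WWTR1 and YAP1 change places between the groups. In CPM, without exon length, WWTR1 is above YAP1 in all 6.

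Levels of different genes were compared per exon length, as RPKM. Averaged over the 6 libraries, CYR61 was the most abundant member at 213.5 RPKM, above 99.1% of the tested genes. ANKRD1 followed at 78.9 RPKM and AMOTL2 at 32.9 RPKM, above 97.1% and 92.6% of the tested genes. WWTR1, YAP1 and CTGF lay close together at 12.7, 12.3 and 10.9 RPKM. TEAD1 reached 7.26 RPKM, LATS2 4.04, TEAD3 2.61 and TEAD4 1.92, the last above 43.8% of tested genes. Neighbours in this order overlapped over the 6 libraries for WWTR1 and YAP1 and for TEAD3 and TEAD4. The order was the same in every library except that WWTR1 stood above YAP1 in each siControl library and below it in each siNFE2L3 library. This exchange depends on the exon lengths, since in CPM WWTR1 stood above YAP1 in all 6 libraries.

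Of the coactivators, WWTR1 fell and YAP1 did not pass the test. WWTR1, on chromosome 3 (149517235 to 149736714, minus strand, GRCh38), encodes TAZ, the paralog of YAP. Its level was 118, 118 and 126 CPM in siControl and 93.7, 93.9 and 94.6 CPM in siNFE2L3. The groups did not overlap, and the knockdown libraries lay within 1 CPM of each other. WWTR1 fell to 78.2% of control (log2 fold change -0.35, SE 0.0415, 95% interval -0.44 to -0.27, adjusted p = 4.46e-07, edgeR). An exact two-sided permutation test of 3 against 3 libraries cannot give less than 0.1, which is the value WWTR1 reached.

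YAP1, on chromosome 11 (102110461 to 102233423, plus strand), encodes YAP itself. Its level was 76.9, 76.0 and 77.0 CPM in siControl and 76.8, 80.2 and 78.9 CPM in siNFE2L3. The groups overlapped, since siNFE2L3 1 lay among the controls. The log2 fold change was 0.04 (SE 0.0418, adjusted p = 0.562, edgeR), and its 95% interval of -0.05 to 0.12 holds the changes from a small decrease to a rise of 0.12 on the log2 scale.

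The log2 ratio of YAP1 to WWTR1 RPKM was -0.20, -0.21 and -0.29 in siControl and 0.13, 0.19 and 0.16 in siNFE2L3. The groups did not overlap, and the difference of the means was 0.39 (exact two-sided permutation p = 0.1, n = 3 per group, the smallest the design allows). In CPM the difference was the same, 0.39, but WWTR1 stood above YAP1 in every library, so the sign of the ratio depends on exon length. The summed RPKM of both coactivators was 26.5 ± 0.605 in siControl and 23.7 ± 0.295 in siNFE2L3 (SD, n = 3), with the same exact p of 0.1. In this annotation the symbol TAZ names tafazzin, a mitochondrial acyltransferase, and is not WWTR1. Tafazzin had a log2 fold change of 0.19 (adjusted p = 0.0386, edgeR), opposite in sign to that of WWTR1.

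TEAD1, on chromosome 11 (12674591 to 12944483, plus strand), had the highest RPKM of the TEAD transcripts in these cells. Its level was 81.8, 76.4 and 76.9 CPM in siControl and 70.1, 70.4 and 72.4 CPM in siNFE2L3. All siNFE2L3 libraries lay below all siControl libraries, and siControl 1 stood above the other 2. TEAD1 fell to 90.5% of control (log2 fold change -0.14, SE 0.0437, adjusted p = 0.0155, edgeR). The call ended when siControl 1, siNFE2L3 1 or siNFE2L3 2 was left out, at adjusted p-values of 0.0629, 0.0665 and 0.0596.

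TEAD3, on chromosome 6 (35473597 to 35497076, minus strand), showed the lowest level relative to control of the 10 members. It stood at 9.12, 9.30 and 9.20 CPM in siControl and 7.52, 6.44 and 6.17 CPM in siNFE2L3, from 484, 538 and 511 against 420, 362 and 317 counts. The controls were nearly equal, while siNFE2L3 1 lay between them and the other knockdown libraries. TEAD3 fell to 72.8% of control (log2 fold change -0.46, SE 0.0887, 95% interval -0.64 to -0.27, adjusted p = 0.000347, edgeR).

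TEAD4, on chromosome 12 (2959330 to 3040673, plus strand), stood at 4.22, 4.22 and 4.68 CPM in siControl and 4.21, 4.55 and 4.26 CPM in siNFE2L3. The groups overlapped. With 219 to 260 counts per library its 95% interval of -0.23 to 0.21 around a log2 fold change of -0.01 (adjusted p = 0.958, edgeR) is the widest of the 10, and a change as large as that of WWTR1 lies outside it. TEAD2 had 0 to 6 counts per library and was not tested.

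The summed TEAD RPKM was 12.6 ± 0.252 in siControl and 11.03 ± 0.122 in siNFE2L3 (SD, n = 3), with no overlap and an exact permutation p of 0.1. TEAD1 made up 61.9%, 60.2% and 59.4% of the sum in siControl and 61.1%, 62.4% and 64.3% in siNFE2L3, and these groups overlapped. TEAD3 made up 23.3%, 24.7% and 24.0% in siControl and 22.1%, 19.3% and 18.5% in siNFE2L3. Its share was lower in every siNFE2L3 library. TEAD4 made up 14.5%, 15.04% and 16.4% in siControl and 16.6%, 18.3% and 17.1% in siNFE2L3, a higher share in every siNFE2L3 library, while its level did not pass the test. The exact two-sided p was 0.1 for the TEAD3 and TEAD4 shares and 0.2 for the TEAD1 share. In CPM, without length, the differences in share, siNFE2L3 minus siControl, were -1.84 percentage points for TEAD3 and 0.534 for TEAD4, in place of -4.05 and 2.04 (exact permutation p = 0.1 and 0.3 in CPM).

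**Figure D3:**
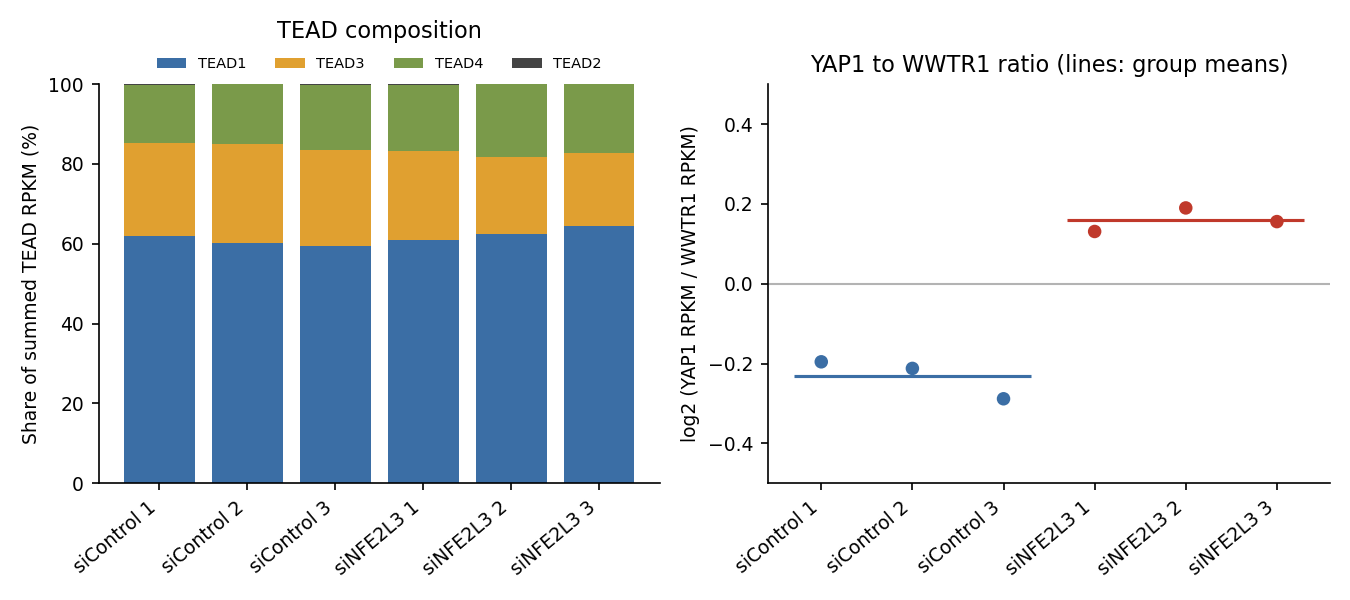
Shares of TEAD1, TEAD2, TEAD3 and TEAD4 in their summed RPKM, in percent, and the log2 ratio of YAP1 to WWTR1 RPKM, for each of the 6 libraries. The TEAD3 share is lower and the TEAD4 share higher in every siNFE2L3 library, and the ratio turns from negative to positive. The sign of the ratio depends on exon length, and in CPM WWTR1 is above YAP1 in every library. The separation of the TEAD4 share depends on exon length too, with an exact permutation p of 0.3 in CPM.

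CTGF, CYR61 and ANKRD1 are the targets most often read as a sign of YAP and TAZ activity. CYR61, on chromosome 1 (85580761 to 85583962, plus strand), encodes a secreted matricellular protein of the CCN family. It stood at 521, 566 and 585 CPM in siControl and 478, 520.0 and 475 CPM in siNFE2L3. The groups did not overlap by a narrow margin, since siControl 1 and siNFE2L3 2 differed by less than 1 CPM. CYR61 fell to 88.1% of control (log2 fold change -0.18, SE 0.0450, adjusted p = 0.00327, edgeR).

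ANKRD1, on chromosome 10 (90912096 to 90921276, minus strand), encodes an ankyrin repeat protein of the nucleus and sarcomere. It has 2 GGAATG matches, shown above, before a RefSeq start at 90921087. That start lies inside the span of the gene as counted, and so does the match 128 bases before it. The level of ANKRD1 was 163, 162 and 185 CPM in siControl and 135, 150.2 and 141 CPM in siNFE2L3. siControl 3 was the highest library, and no siNFE2L3 library reached a control. ANKRD1 fell to 83.5% of control (log2 fold change -0.26, SE 0.0493, 95% interval -0.36 to -0.16, adjusted p = 0.000262, edgeR), the largest fall among the 5 target genes.

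CTGF, on chromosome 6 (131948176 to 131951373, minus strand), encodes connective tissue growth factor, a CCN protein like CYR61, and has 3 GGAATG matches. It stood at 25.8, 28.2 and 26.8 CPM in siControl and 24.3, 25.0 and 23.6 CPM in siNFE2L3. The groups did not overlap, although siControl 1 and siNFE2L3 2 were close. The log2 fold change of -0.15 (SE 0.0558, 95% interval -0.26 to -0.03) had an unadjusted p of 0.0139 and an adjusted p of 0.0516 in edgeR, and so just missed the threshold. It passed without siControl 1 (log2 fold change -0.18, adjusted p = 0.0227) and with unscaled library totals (adjusted p = 0.0379), and in none of the other alternatives. Among these, the adjusted p was 0.192 without siControl 2 (log2 fold change -0.12), 0.177 without siNFE2L3 3, 0.124 without siNFE2L3 1 and 0.0961 with upper quartile scaling.

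AMOTL2, on chromosome 3 (134355874 to 134375479, minus strand), encodes an angiomotin-like scaffold that binds YAP and TAZ. It stood at 192, 219 and 205 CPM in siControl and 191, 182 and 193 CPM in siNFE2L3. siNFE2L3 3 lay above siControl 1, so the groups overlapped. AMOTL2 stood at 91.8% of control (log2 fold change -0.12, SE 0.0450, adjusted p = 0.0429, edgeR). The call was lost without any 1 of siControl 2, siControl 3, siNFE2L3 1, siNFE2L3 2 or siNFE2L3 3, and without siControl 2 the log2 fold change was -0.08 (adjusted p = 0.246).

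LATS2, on chromosome 13 (20973032 to 21061547, minus strand), encodes a kinase that inactivates YAP and TAZ and is also a target of both. It stood at 22.2, 22.7 and 21.6 CPM in siControl and 23.1, 23.3 and 22.5 CPM in siNFE2L3. The groups overlapped, and siNFE2L3 3 lay below siControl 2. The log2 fold change was 0.05 (SE 0.0558, adjusted p = 0.552, edgeR), with a 95% interval of -0.06 to 0.17.

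**Figure D4:**
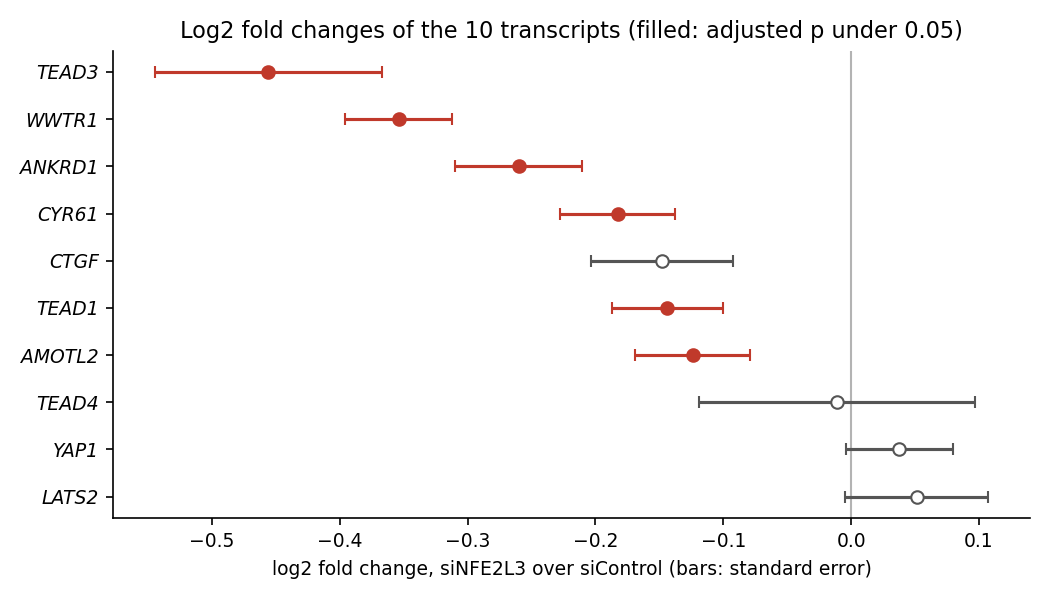
Log2 fold change of the 10 transcripts, siNFE2L3 over siControl, with bars of 1 standard error. Filled points passed an adjusted p under 0.05 in edgeR, open points did not, and the passing values run from -0.46 for TEAD3 to -0.12 for AMOTL2.

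The exons of 4 members overlap those of another gene. The sources used here give no strand setting of the counting, so reads of opposite-strand partners cannot be told apart from those of the member. RP11-864G5.3 shares 628 bases with YAP1, all of its own exon bases and 9.97% of the YAP1 exon length. It had 380 to 509 counts per library and a log2 fold change of -0.06 (adjusted p = 0.695, edgeR). Its mean level was 12.7 RPKM beside 12.3 for YAP1. Without the strand setting RP11-864G5.3 cannot be taken as a measure separate from YAP1. WWTR1-AS1 shares 795 bases with WWTR1 and had 232 to 355 counts, with a log2 fold change of -0.29 (adjusted p = 0.0503), close in size to that of WWTR1. RP11-69I8.3 shares 195 bases with CTGF and had 86 to 139 counts, while RPL39P5, a ribosomal protein pseudogene on the same strand, shares 187 bases with AMOTL2.

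The rest of the pathway was read from 6 lists with 69 genes, written with earlier results of these data known. Of 62 tested genes 16 were lower, 9 higher and 37 did not pass, with a median log2 fold change of -0.01. The share that was higher, 14.5%, was near the 12.7% of all tested genes. The share that was lower, 25.8%, was above the 14% of all tested genes and nearer to the 20.6% of genes with at least 4 CPM. The counts of the single lists below are to be read against the same shares, and nothing particular to the pathway is read from them. Among 17 kinases and adaptors 5 were lower and 2 higher. SAV1, the scaffold that couples MST to LATS kinases, fell (28.6 ± 0.212 to 21.9 ± 1.22 CPM, SD, n = 3; log2 fold change -0.39, SE 0.0564, adjusted p = 9.54e-06). NF2, the membrane-linked tumour suppressor merlin upstream of LATS, fell by 0.30 on the log2 scale (adjusted p = 0.0017, edgeR), and WWC2 fell by 0.20 (adjusted p = 0.0012). STK38L fell by 0.18 while its paralog STK38 rose by 0.29 (70.2 ± 3.31 to 85.7 ± 3.12 CPM, SD, n = 3; adjusted p = 3.06e-05, edgeR). MOB1B, which binds LATS, rose by 0.18 (adjusted p = 0.00445).

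Among 15 junction, cytoskeletal and STRIPAK genes 3 were lower, or 5 with unscaled library totals, and 2 higher, with a median of 0.03. LIMD1, a LIM protein that binds LATS, fell by 0.26, MOB4 by 0.20 and STRN by 0.16. RASSF1 rose by 0.33 and AMOTL1, the relative of AMOTL2, by 0.20. The number of higher genes here was 1 without siControl 2, siControl 3 or siNFE2L3 2. Among 11 genes of 14-3-3 proteins and YAP turnover, 1 was lower and 3 higher, with a median of 0.05. SFN, the 14-3-3 sigma protein, fell by 0.57 from 5.13 ± 0.332 CPM (SD, n = 3), and YWHAH rose by 0.22, YWHAB by 0.13 and YWHAE by 0.12. The number of higher genes there was 1 without siControl 2, siNFE2L3 2 or siNFE2L3 3, and 5 with upper quartile scaling. Of the VGLL cofactors VGLL4 alone was tested (log2 fold change 0.09, adjusted p = 0.362, edgeR).

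Among 16 tested targets of YAP and TAZ beside the members, 7 were lower and 1 higher, with a median of -0.08. AXL, a receptor tyrosine kinase, fell from 464 ± 6.75 to 231 ± 4.83 CPM (SD, n = 3; log2 fold change -1.01, SE 0.0382, adjusted p = 2.59e-15, edgeR) and was the only pathway gene beside the members to fall at least 2-fold. NT5E, the ectonucleotidase CD73, fell by 0.73 on the log2 scale (adjusted p = 1.38e-12), GADD45B by 0.49 (adjusted p = 1.69e-08) and PTPN14, a phosphatase that restrains YAP, by 0.31 (adjusted p = 8.70e-07). IGFBP3, a secreted binder of insulin-like growth factors, rose by 0.22, and 2 genes of this list were higher without siControl 1 or siNFE2L3 1, with upper quartile scaling and with no filter on low counts. FOXF2, at 0 to 2 counts per library, was not tested. Of the other CCN genes NOV rose by 0.60 from 3.81 ± 0.312 CPM (SD, n = 3; adjusted p = 0.000374, edgeR), in the opposite direction to the fall of its family member CYR61.

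**Figure D5:**
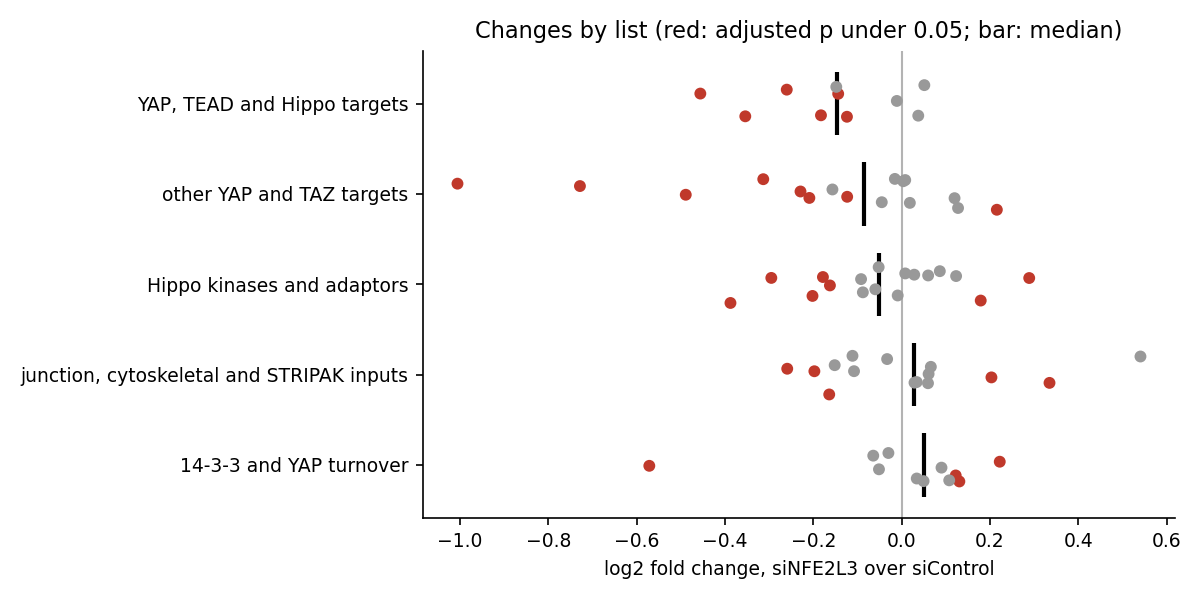
Log2 fold changes of the 10 transcripts and of the tested genes in 4 of the 6 pathway lists, with 1 point per gene and a bar at the median. Genes that passed an adjusted p under 0.05 are in red, and AXL at -1.01 and NT5E at -0.73 are the lowest values.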

How the data were processed

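RNA from 3 siControl and 3 siNFE2L3 samples of 786-O cells was sequenced by the authors, with molecular identifiers. Per the labels and the study's methods, the authors trimmed reads with Trimmomatic 0.36, grouped reads by identifier and sequence similarity into consensus sequences, mapped with STAR 2.5.3a to the Ensembl release 87 genome (GRCh38) and counted exons with featureCounts (Subread 1.5.1). The deposited table holds raw counts per gene and library with exon lengths. The instrument is a DNBSEQ-T7 in the labels and an Illumina one in the methods. Even numbers made up 67.6% to 69.9% of counts under 30, so halved counts were tried as an alternative.

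Counts were tested with edgeR 4.0.16 (R 4.3.3), using TMM, filterByExpr with a minimum count of 10 and the quasi-likelihood test, with no replicate block, and Benjamini-Hochberg adjustment over 19916 genes. CPM and RPKM were computed here from TMM library sizes and exon length. Single values were compared with exact two-sided permutation tests (SciPy 1.17.1). DESeq2 1.42.0, limma 3.58.1, other scalings and filters and leaving out each library were alternatives. Promoter letters were counted in RefSeq windows.

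The members and lists were chosen with earlier results of these data known. Named are the 10 members, NFE2L3, TEAD2, tafazzin, genes whose exons overlap a member's, and at most 4 called genes per list and direction with the largest change, at a mean of at least 1 CPM. VGLL4, the only tested gene of its list, PAX8, CA9 and FOXF2 are named outside this rule. siRNA sequences were not used here.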

Additional observations from a re-analysis of the deposited data

How the results depend on the processing

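WWTR1, TEAD3, CYR61 and ANKRD1 stayed lower with an adjusted p under 0.05 in all alternatives except the test against a 1.2-fold change. In that test 0 members passed (WWTR1 adjusted p = 0.0888, TEAD3 0.0923, edgeR). Only 451 of all 19916 tested genes were lower in it and 428 higher, so the 0 is not read as particular to the members. The counts of lower members leaving out 1 library were 4 to 6, beside 2210 to 2892 lower of 20333 to 20436 tested genes. The count was 5 with upper quartile scaling and 7 with unscaled totals, beside 2422 and 3013 lower of 19916 tested genes. Where a change of 2-fold or more was also asked for, at an unadjusted p under 0.05, 0 members were lower. Of the other pathway genes 1 was lower and 0 higher, and of all tested genes 1.10% met this rule in either direction. TEAD4 turned sign with upper quartile scaling (log2 fold change 0.0091) and ran from -0.048 to 0.039 when 1 library was left out. AMOTL2 also lost its call with upper quartile scaling (adjusted p = 0.0863). The cause was not tested. The same-numbered libraries shared only a number, with correlations of -0.0195 to -0.0121. With a replicate block 5 members were lower, beside 2504 of 19916 tested genes, AMOTL2 being lost (log2 fold change -0.12, adjusted p = 0.0876, edgeR). The block gave an exact p of 0.25 for the TEAD3 and TEAD4 shares and the YAP1 to WWTR1 ratio, the smallest it allows. For the TEAD1 share the exact p was 0.5. At 219 to 260 counts per library, changes of TEAD4 within its interval were not detectable.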
